A study of Arabidopsis thaliana with 4 samples.

Results

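The genes described here are the core cell cycle genes of Arabidopsis thaliana: the A-, B- and D-type cyclins, the cyclin-dependent kinases CDKA and CDKB, the kinase inhibitors of the KRP family with SIM and LGO, the aurora kinases, the MCM2 to MCM7 subunits of the replicative helicase, and PCNA. They were listed by locus and family, with no threshold on a measured value but with earlier results of these data known, and a probe set counted as a member when its annotation named that locus alone. Of 47 listed loci, 41 had such a probe set, 1 each, among 22746 probe sets tested, which name 21226 loci singly. MCM6 (AT5G44635) and KRP6 (AT3G19150) had no probe set in the annotation of the table, and CYCB1;2 (AT5G06150), CYCB2;3 (AT1G20610), CDKB1;1 (AT3G54180) and CDKB1;2 (AT2G38620) had only probe sets that also name another locus.

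RNA came from whole wild-type seedlings of the accession Columbia 0, 5 days old, grown on 1/2 Murashige and Skoog medium with 0.1% sucrose, either without further addition (control, 2 arrays) or with ASP (2 arrays). ASP is a piperazine that carries a bromophenoxyacetyl group on one nitrogen and a fluorophenylsulfonyl group on the other; the sources used here give no dose. The labels call the arrays of a group biological replicates but do not say how many seedlings were pooled or whether they grew on separate plates. The p-values therefore set each difference only against the spread between these samples, which limma estimates partly from all probe sets. Values are log2 signals of Affymetrix 3′ expression arrays as the submitters normalized them, and every difference below is ASP minus control on that scale.

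Plant cells pass from G1 into DNA replication when D-type cyclins with CDKA relieve the retinoblastoma-related repressor of E2F factors, whose targets include the MCM helicase, PCNA and other replication genes. Entry into mitosis relies on A2-type and B-type cyclins with CDKB kinases, whose transcripts peak from G2 to mitosis, and on aurora kinases, which act on chromosomes and the spindle. The KRP and SIM-type proteins bind and inhibit cyclin-CDK complexes, and SIM-type inhibitors are known for the switch from division to endoreplication, in which cells copy DNA without dividing. In a whole seedling these transcripts come mainly from the root and shoot meristems, from young leaves and from lateral root primordia, and in such bulk samples fewer cells of a type and less RNA per cell cannot be told apart.

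No member passed the test. In limma without an intensity trend, 0 of 41 members had a Benjamini-Hochberg adjusted p under 0.05, and 0 of all 22746 probe sets did (0%). With an intensity trend limma again called 0 of 41 members, while 72 of all probe sets (0.317%) passed. At an unadjusted p under 0.05 there was 1 member, AUR2, without the trend, where 7.42% of all probe sets reached that level. With the trend there were 5 members, 3 higher (CYCB1;1, LGO and AUR2) and 2 lower (MCM3 and PCNA1), where 9.47% of all probe sets reached it. The smallest adjusted p of any member was 0.624 without and 0.339 with the trend in limma. An exact permutation test of 2 arrays against 2 cannot give a two-sided p below 0.333, so no test of that kind was run.

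Members were more often lower than higher with ASP. Of the 41, 27 were lower and 14 higher, beside 11934 lower of all 22746 probe sets. The lower members were 9 of 9 S-phase genes (MCM, PCNA and A3-type cyclins), 10 of 16 mitotic genes and 8 of 16 others. The median log2 difference of the members was -0.09, with a range from -0.50 (KRP7) to 0.51 (LGO), and 0 reached a 2-fold difference. Both ASP arrays lay below both control arrays for 9 members, where 20.9% of all probe sets did so. They lay above both for 5 members, where 18.5% of all probe sets did. The first count is close to the background share, and the second is under it. Over all probe sets the median log2 difference was -0.02. The 4 arrays were alike in their general properties: 15075 to 15706 probe sets were called present per array, and the array medians ran from 7.503 to 7.53. Of the members, 38 were called present on all 4 arrays and 40 on at least 2, so low signal limited few of them; the number of arrays limits the precision of all.

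The S-phase group, comprising the MCM subunits, PCNA and the A3-type cyclins, lay to one side. All 9 measured genes of 10 listed had a lower mean with ASP, with a median log2 difference of -0.30 and a range from -0.43 to -0.03. For 6 of these 9 both ASP arrays lay below both control arrays. Among the 14261 probe sets called present on all 4 arrays, which include all 9, 49.5% had a lower mean with ASP, 20.5% had both ASP arrays below both controls, and the median difference was 0.00. None of the 9 passed the threshold in limma (adjusted p from 0.731 to 0.981 without the trend and from 0.452 to 0.985 with it). Without the trend 0 of all 22746 probe sets passed, so this result does not show that the genes were unchanged.

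The MCM proteins form the ring-shaped helicase that is loaded at replication origins and unwinds DNA ahead of the fork. MCM3 (AT5G46280) had log2 signals of 8.96 and 9.29 in controls and 8.78 and 8.62 with ASP, a difference of -0.43 ± 0.20 (SE; limma adjusted p = 0.751, and 0.452 with the trend). MCM4 (AT2G16440) measured 8.82 and 8.95 in controls against 8.61 and 8.51 with ASP, a log2 difference of -0.33 ± 0.15 (SE; limma adjusted p = 0.747, and 0.534 with the trend). In both genes the higher ASP array remained under the lower control array. MCM5 (AT2G07690) was close within each group, at 8.63 and 8.62 in controls and 8.33 and 8.29 with ASP, which gave a log2 difference of -0.32 with a 95% interval from -0.72 to 0.09. MCM7 (AT4G02060) gave 9.64 and 9.52 in controls and 9.24 and 9.38 with ASP, a log2 difference of -0.27 (95% interval -0.73 to 0.19). MCM5 and MCM7 likewise showed no overlap of the groups. MCM2 (AT1G44900) was the exception within the helicase, with control log2 signals of 8.45 and 8.61 and ASP log2 signals of 8.39 and 8.46. Its groups overlapped, and its log2 difference was -0.10 (95% interval -0.55 to 0.34). The summed linear signal of the 5 measured MCM genes was 2495 and 2641 in controls and 2091 and 2088 with ASP.

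PCNA is the sliding clamp that holds DNA polymerase on its template, and Arabidopsis has a pair of genes for it. PCNA1 (AT1G07370) measured 10.68 and 10.62 in controls and 10.02 and 10.51 with ASP, a log2 difference of -0.39 ± 0.23 (SE; limma adjusted p = 0.799, and 0.506 with the trend). PCNA2 (AT2G29570) measured 10.49 and 10.53 in controls and 10.25 and 10.49 with ASP, a log2 difference of -0.14 (95% interval -0.64 to 0.35). In each gene the first ASP array was the low one, and without it the log2 differences of PCNA1 and PCNA2 were -0.14 and -0.02. The A3-type cyclins are expressed around S phase. CYCA3;2 (AT1G47210) gave control log2 signals of 8.90 and 8.73 and ASP log2 signals of 8.43 and 8.60, a difference of -0.30 (95% interval -0.79 to 0.19) with no overlap of the groups. CYCA3;1 (AT5G43080) gave 7.34 and 7.35 in controls, while its ASP arrays lay on either side at 7.06 and 7.56, so that its log2 difference was -0.03 (95% interval -0.74 to 0.67).

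In the group median, the S-phase difference was larger on one ASP array than on the other. Relative to the mean of the controls, the median of the 9 genes was -0.30 on ASP array 1 and -0.20 on ASP array 2. On these arrays 9 and 6 of the genes were below both controls. The 5 MCM genes did not share this order, with medians of -0.30 and -0.34, while the 2 PCNA genes had -0.45 and -0.08. Without ASP array 1 the count of lower genes was 8 of 9, since CYCA3;1 then had a log2 difference of 0.22, and the group median was -0.20. The summed linear signal of the S-phase genes was 6218 and 6284 in controls and 4823 and 5567 with ASP.

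A measure of transcript completeness also differed between the groups. The array checks RNA and labelling with probes along housekeeping transcripts (actin, GAPDH, ubiquitin), and at their 5′ end 6 of 6 probe sets were lower with ASP, with a median log2 difference of -0.19 (range -0.39 to -0.11). Those in the middle of the transcripts were lower in 4 of 4 (median -0.17), and those at the 3′ end were higher in 5 of 6 (median 0.04). Several of these probe sets measure the same transcript, so they are not independent checks. This measure was taken between groups and not per array, and it applies to the arrays as a whole. Its part in the differences of the S-phase genes, or of any other members, was not tested.

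**Figure D1:**
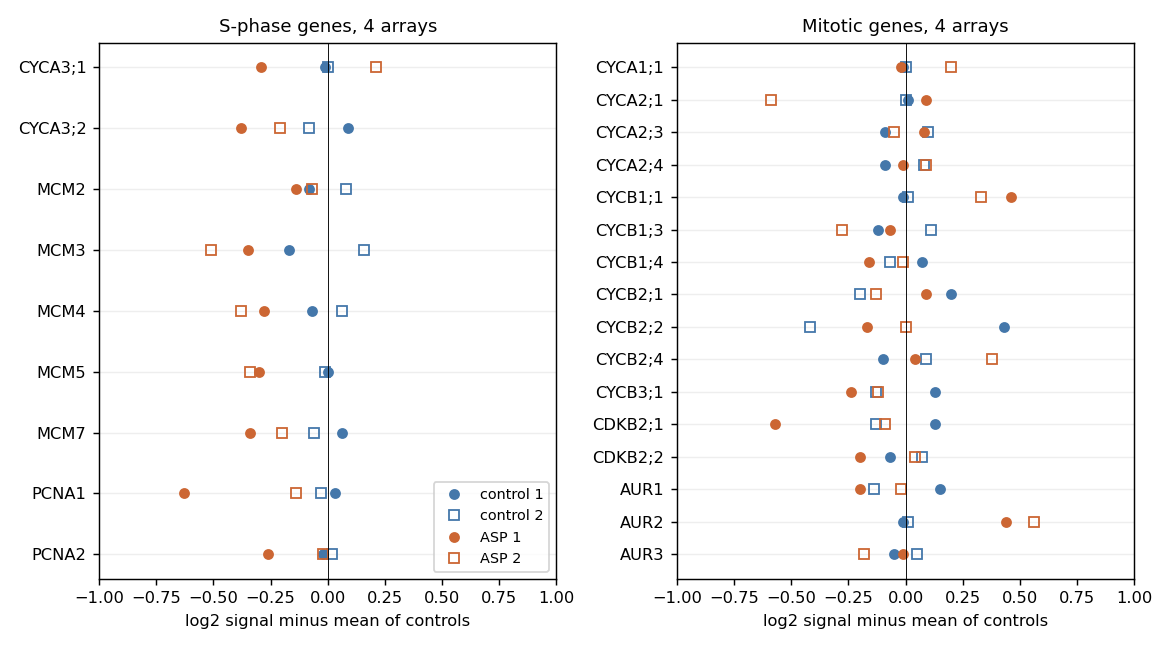
Log2 signal of each S-phase gene (left) and each mitotic gene (right) minus the mean of the 2 control arrays, on all 4 arrays; filled marks are replicate 1 and open marks replicate 2, blue control and orange ASP. Both ASP arrays lie below both control arrays for 6 of 9 S-phase genes, while the mitotic genes scatter on both sides of 0 with CYCB1;1 and AUR2 to the right; CYCA2;1 was called absent on all 4 arrays.

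The mitotic group did not share this one-sided position. Of 20 listed genes 16 had a probe set of their own, and 6 of these were higher and 10 lower with ASP, with a median log2 difference of -0.08 and a range from -0.33 to 0.50. Both ASP arrays lay above both controls for 2 genes (AUR2 and CYCB1;1) and below both for 0, beside 18.5% and 20.9% of all probe sets, so the count of higher genes is no more than the background. The median of the group relative to the control mean was -0.01 on ASP array 1 and -0.02 on ASP array 2. The summed linear signal was 3889 and 3686 in controls and 3679 and 3977 with ASP, so the groups overlapped in this sum.

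Aurora kinases phosphorylate histone H3 and act in spindle and division plane function. AUR2 (AT2G25880) measured 8.22 and 8.24 in controls and 8.67 and 8.79 with ASP, a log2 difference of 0.50 ± 0.14 (SE), or 1.41-fold, with an adjusted p of 0.624 in limma and 0.342 with the trend. The gap between the groups was larger than the spread within either. AUR1 (AT4G32830), a paralog of AUR2 with a similar role at the spindle, gave 9.06 and 8.77 in controls and 8.71 and 8.89 with ASP, a log2 difference of -0.11 (95% interval -0.68 to 0.45). AUR3 (AT2G45490), which locates to centromeres, gave 7.0 and 7.10 in controls and 7.04 and 6.87 with ASP, a log2 difference of -0.09. The groups overlapped in AUR1 and AUR3, and the difference between AUR2 and its paralogs was not tested.

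B-type cyclins drive entry into mitosis, and CYCB1;1 is widely used as a reporter of cells at G2 to M; its transcript is also known to accumulate after DNA damage. CYCB1;1 (AT4G37490) measured 7.89 and 7.91 in controls and 8.36 and 8.23 with ASP, a log2 difference of 0.40 ± 0.14 (SE), with an adjusted p of 0.699 in limma and 0.524 with the trend. Both ASP arrays were above both controls. The other B1-type cyclins with probe sets of their own had small differences of the opposite sign. CYCB1;3 (AT3G11520) gave 7.84 and 8.07 in controls and 7.89 and 7.68 with ASP, a log2 difference of -0.17. CYCB1;4 (AT2G26760) gave 8.11 and 7.97 in controls and 7.88 and 8.03 with ASP, a log2 difference of -0.09. In both the groups overlapped.

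The B2-type and B3-type cyclins, which also act in mitosis, showed overlapping groups in each case. CYCB2;1 (AT2G17620) gave log2 signals of 7.64 and 7.24 in controls and 7.53 and 7.31 with ASP. CYCB2;2 (AT4G35620) was the most variable, with 7.57 and 6.72 in controls against 6.97 and 7.14 with ASP, and its 95% interval ran from -1.17 to 1.00. CYCB2;4 (AT1G76310) gave 7.34 and 7.53 in controls and 7.48 and 7.82 with ASP, a log2 difference of 0.21. These small and opposite differences left no common direction in the B2 type. CYCB3;1 (AT1G16330) gave 7.07 and 6.81 in controls and 6.70 and 6.82 with ASP, a log2 difference of -0.17.

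The mitotic A-type cyclins had differences close to 0. CYCA1;1 (AT1G44110) measured 8.64 and 8.65 in controls and 8.63 and 8.85 with ASP, a log2 difference of 0.09. CYCA2;3 (AT1G15570), which restrains endoreplication, measured 7.14 and 7.33 in controls and 7.31 and 7.18 with ASP. CYCA2;4 (AT1G80370) measured 7.52 and 7.69 in controls and 7.60 and 7.70 with ASP. All 3 had overlapping groups. CYCA2;1 (AT5G25380) was called absent on all 4 arrays, with log2 signals between 4.11 and 4.79, and its difference is not interpreted, though it is counted among the 16. The B2-type kinases are specific to plants and are required for meristem divisions. CDKB2;1 (AT1G76540) measured 8.85 and 8.59 in controls and 8.15 and 8.63 with ASP, a log2 difference of -0.33 (95% interval -1.08 to 0.42) that was -0.09 without ASP array 1. CDKB2;2 (AT1G20930) measured 8.17 and 8.31 in controls and 8.04 and 8.28 with ASP, a log2 difference of -0.07.

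Probe sets that also match another locus gave the following values and are not counted above. The probe set shared by CYCB1;2 and AT1G34460 read 7.71 and 7.63 in controls and 7.77 and 8.19 with ASP, a log2 difference of 0.31. The probe set shared by CYCB2;3 and AT1G20590 read 7.42 and 7.22 in controls and 7.05 and 7.51 with ASP, a log2 difference of -0.04. The probe set that CDKB1;1 and CDKB1;2 share read 7.67 and 7.68 in controls and 7.64 and 7.88 with ASP, a log2 difference of 0.09. In these probe sets the signal of the loci cannot be told apart.

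Set beside each other, the mitotic median exceeded the S-phase median by 0.22 on the log2 scale. Per array, taking each gene relative to its control mean, the mitotic median minus the S-phase median was 0.29 on ASP array 1 and 0.18 on ASP array 2, against 0.00 and 0.00 on the control arrays, where the averaging over the same 2 controls draws the values to 0. Genes are not replicates and the sets were listed with earlier results of these data known, so no test was made of this difference. Adding the 3 shared probe sets to the mitotic set, an alternative chosen after seeing the data, gave a mitotic median of -0.04 and a difference of 0.26.

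**Figure D2:**
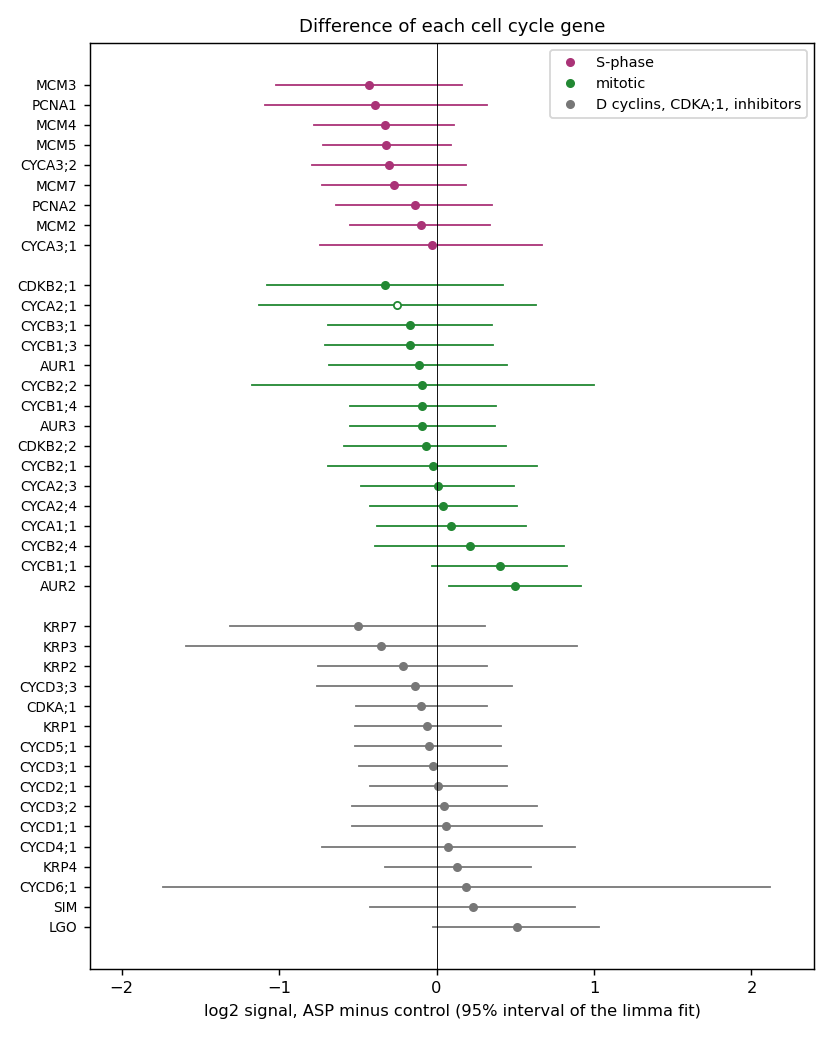
Log2 difference (ASP minus control) of each measured member with the 95% interval of the limma fit without an intensity trend, for the S-phase genes, the mitotic genes and the D-type cyclins with CDKA;1 and the inhibitors; the open mark is CYCA2;1, called absent on all 4 arrays. All 9 S-phase marks lie left of 0, the mitotic marks run from -0.33 to 0.50, and only the interval of AUR2 (0.08 to 0.92) leaves out 0.

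D-type cyclins link growth, sugar and hormone signals to the entry into the cycle. All 8 on the member list were measured, and 5 were higher and 3 lower with ASP. Their median log2 difference was 0.03 and each was within 0.25 of 0. The groups overlapped for each of the 8. CYCD4;2 and CYCD7;1 were outside that list, and CYCD7;1 had no probe set. CYCD1;1 (AT1G70210) gave 7.63 and 7.25 in controls and 7.46 and 7.55 with ASP. CYCD2;1 (AT2G22490) gave 9.18 and 9.26 in controls and 9.30 and 9.17 with ASP. The D3 type is known for response to cytokinin and for divisions in young leaves. CYCD3;1 (AT4G34160) gave 9.34 and 9.51 in controls and 9.34 and 9.46 with ASP, a log2 difference of -0.02 (95% interval -0.49 to 0.45). CYCD3;2 (AT5G67260) gave 10.22 and 10.38 in controls and 10.18 and 10.52 with ASP. CYCD3;3 (AT3G50070) gave 9.67 and 9.46 in controls and 9.24 and 9.60 with ASP. The log2 differences of the D3 cyclins ran from -0.14 to 0.05.

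CYCD4;1 (AT5G65420), which acts in early lateral root and stomatal lineage divisions, gave 6.29 and 5.71 in controls and 6.13 and 6.01 with ASP. CYCD5;1 (AT4G37630) gave 7.31 and 7.52 in controls and 7.34 and 7.39 with ASP. CYCD6;1 (AT4G03270), which is needed for the formative divisions that split cortex from endodermis, gave 5.78 and 4.96 in controls and 4.86 and 6.26 with ASP. It was called present on 1 array of each group, and its 95% interval from -1.74 to 2.12 leaves its direction unknown. CDKA;1 (AT3G48750), the main cyclin-dependent kinase of the plant cycle, gave 10.13 and 10.22 in controls and 10.05 and 10.10 with ASP. Its groups did not overlap, but the log2 difference was -0.10 (95% interval -0.51 to 0.32).

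The inhibitors differed in sign. Of 6 KRP genes on the member list 5 were measured, and 4 of these were lower with ASP, with a median log2 difference of -0.21. KRP5 (AT3G24810), outside that list, had a log2 difference of -0.13 with overlapping groups. KRP7 (AT1G49620) gave 7.49 and 6.91 in controls and 6.63 and 6.78 with ASP, a log2 difference of -0.50 (95% interval -1.31 to 0.31; limma adjusted p = 0.777, and 0.674 with the trend), and was called present on only 1 array of each group. Its log2 difference was -0.20 without control array 1 and -0.79 without control array 2. KRP2 (AT3G50630), known to respond to auxin in lateral root initiation, gave 7.71 and 7.41 in controls and 7.37 and 7.32 with ASP, a log2 difference of -0.21. In KRP7 and KRP2 both ASP arrays lay below both controls, although for each the controls were further apart than the groups' nearest arrays. KRP3 (AT5G48820) gave 7.05 and 7.99 in controls and 7.37 and 6.98 with ASP, a log2 difference of -0.35 that is smaller than the gap between its controls. KRP1 (AT2G23430) gave 7.05 and 7.08 in controls and 7.11 and 6.91 with ASP. KRP4 (AT2G32710) gave 8.08 and 8.13 in controls and 8.34 and 8.14 with ASP, a log2 difference of 0.13. It was the only KRP gene with a higher mean with ASP.

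Both measured founders of the SIM class were higher with ASP. SIM (AT5G04470) stops division in developing trichomes. Its log2 signals were 10.19 and 9.75 in controls and 10.19 and 10.20 with ASP, so that its log2 difference of 0.23 came from the low second control. LGO (AT3G10525) promotes endoreplication in giant cells of the sepal and in leaves. It measured 8.57 and 8.52 in controls and 9.19 and 8.91 with ASP, a log2 difference of 0.51 ± 0.17 (SE), or 1.42-fold, with an adjusted p of 0.688 in limma and 0.339 with the trend. Both ASP arrays of LGO were above both controls by more than either group's range.

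**Figure D3:**
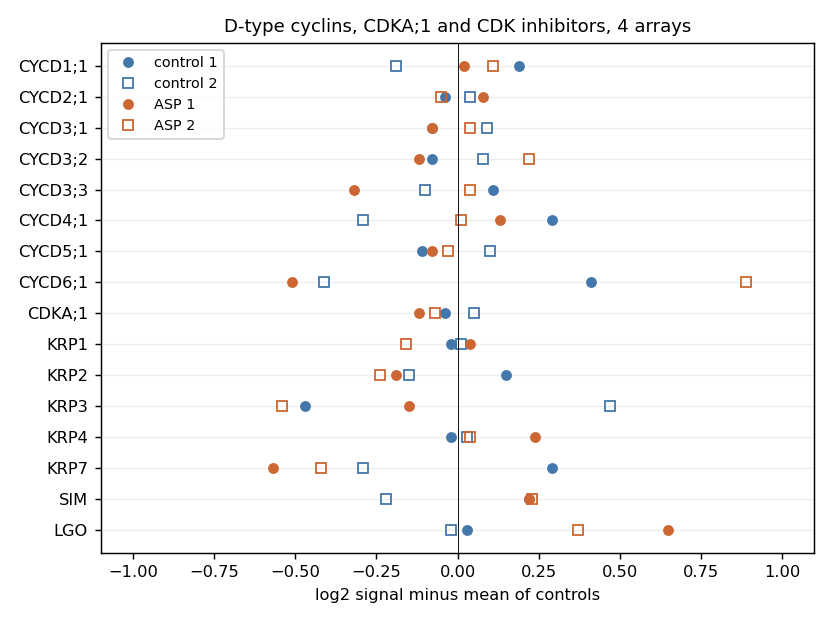
Log2 signal of each D-type cyclin, CDKA;1 and each CDK inhibitor minus the mean of the 2 control arrays, on all 4 arrays, with filled marks for replicate 1 and open marks for replicate 2 (blue control, orange ASP). The D-type cyclins scatter around 0 without separation of the groups, the ASP marks of LGO lie to the right of both controls, and those of KRP7 lie to the left.

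Other cell cycle genes, from a list of 60 grouped by role, were read for the same comparison, and 52 had a probe set of their own. Of these 22 were higher and 30 lower, the median log2 difference was -0.05, and 0 passed the adjusted threshold in limma with or without the trend, while 2 (WEE1 and CDT1A) had an unadjusted p under 0.05 without the trend, a smaller share than the 7.42% of all probe sets. The 4 genes with the smallest p of each role are given below. Retinoblastoma-related RBR1 and the E2F family were lower in 6 of 8 genes, with a median of -0.21. RBR1 (AT3G12280), the repressor itself, had a log2 difference of -0.29, with 9.39 and 9.59 in controls and 9.21 and 9.19 with ASP. The activators E2FA (AT2G36010) and E2FB (AT5G22220) differed in sign, at -0.31 and 0.28, and the repressor E2FC (AT1G47870) was at -0.18.

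Origin licensing genes, which load the MCM ring onto DNA, were lower in 5 of 7, with a median log2 difference of -0.17. CDT1A (AT2G31270), a loading factor, gave 8.06 and 8.19 in controls and 7.71 and 7.67 with ASP, a log2 difference of -0.43 ± 0.14 (SE; limma adjusted p = 0.671, and 0.516 with the trend). CDC6 (AT2G29680), its partner in loading, had a log2 difference of -0.32, and the origin recognition subunits ORC2 (AT2G37560) and ORC4 (AT2G01120) had differences of -0.22 and -0.17. Both ASP arrays lay below both controls for CDT1A, CDC6 and ORC4, as they did for 20.9% of all probe sets. Genes of DNA synthesis were lower in 4 of 6, with a median of -0.13. ICU2 (AT5G67100), the catalytic subunit of DNA polymerase alpha, gave 7.59 and 7.43 in controls and 7.05 and 7.17 with ASP, a log2 difference of -0.40. The ribonucleotide reductase subunits RNR1 (AT2G21790) and RNR2A (AT3G23580) had log2 differences of -0.24 and -0.10, and AT5G63960, a DNA polymerase catalytic subunit, had -0.16.

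Among 9 further genes of mitosis and cytokinesis 6 were higher, with a median log2 difference of 0.04. EDE1 (AT2G44190), a microtubule-binding protein of the spindle, gave 6.12 and 5.94 in controls and 6.38 and 6.72 with ASP, a log2 difference of 0.52 (95% interval -0.09 to 1.12). HINKEL (AT1G18370), a kinesin of the cell plate, and KNOLLE (AT1G08560), the syntaxin of cytokinesis, had log2 differences of 0.22 and -0.16 with overlapping groups. BUBR1 (AT2G33560), of the spindle checkpoint, was not called present on any array. Activators and a subunit of the anaphase-promoting complex, which destroys mitotic cyclins, had log2 differences of 0.24 for CCS52B (AT5G13840), 0.07 for CCS52A1 (AT4G22910), -0.03 for CCS52A2 (AT4G11920), which was present on 1 array, and 0.01 for HBT (AT2G20000). Their groups overlapped.

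Among 8 kinases and partners of the CDKs, 6 were lower, with a median log2 difference of -0.07. WEE1 (AT1G02970), the kinase that inhibits CDKA;1 when replication is impaired, gave 7.47 and 7.42 in controls and 6.87 and 6.55 with ASP. Its log2 difference of -0.74 ± 0.18 (SE), 1.67-fold, had an adjusted p of 0.587 in limma and 0.425 with the trend, and both ASP arrays were below both controls. The CDK-activating kinases CDKF;1 (AT4G28980) and CDKD;3 (AT1G18040) had log2 differences of 0.33 and 0.20, and CDKD;1 (AT1G73690), present on 1 control array, had -0.60. Of 7 further loci listed as inhibitors 4 were higher. SMR5 (AT1G07500), a SIM-type inhibitor induced by reactive oxygen and DNA damage, gave 6.73 and 6.12 in controls and 6.91 and 6.96 with ASP. Its log2 difference was 0.51, and it was called present on both ASP arrays and marginal, not absent, on both controls. AT5G40460 and AT1G08180, which the annotation used here does not name, had log2 differences of -0.27 and 0.11, and AT1G10690 was called absent on all 4 arrays. Of the remaining cyclins, CYCA2;2 (AT5G11300) had a log2 difference of -0.16, CYCD4;2 (AT5G10440) was called absent on all 4 arrays and CYCA1;2 (AT1G77390) was present on 1.

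**Figure D4:**
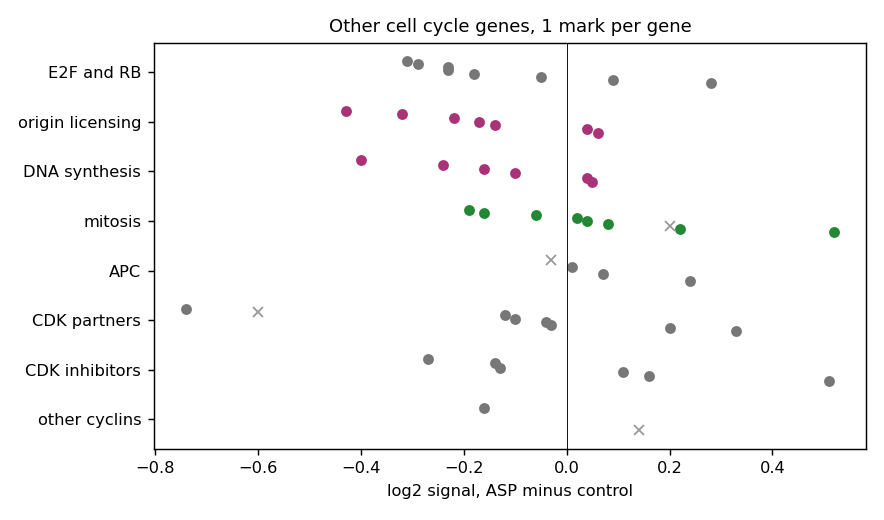
Log2 difference (ASP minus control) of other cell cycle genes by role, 1 mark per gene; genes called absent on all 4 arrays are left out, and crosses are genes present on fewer than 2 arrays. Most marks for E2F and RB, origin licensing and DNA synthesis lie left of 0, WEE1 is the leftmost mark at -0.74, and EDE1 and SMR5 are rightmost at 0.52 and 0.51.

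Markers of cell types that divide, or that could change in amount, were read on the same arrays, and none passed the adjusted threshold in limma. The lateral root primordium list was higher with ASP in 6 of 6 genes, with summed linear signals of 382.2 to 448.6 in controls and 707.4 to 847.3 with ASP. In it LBD18, LBD29 and GATA23 were called absent on both controls. Root meristem markers were higher in 2 of 5, with sums of 1144 to 1203 against 1247 to 1275; PLT1 was absent on all 4 arrays, BBM on both controls, and PLT2 was not called present on any. Shoot meristem markers were higher in 2 of 5, with sums of 1238 to 1408 against 1190 to 1196. CLV3 and WUS were absent on all 4 arrays, and STM, 1 of the 2 higher genes, was not called present on any. The brightest gene of the root list was SCR, at 9.84 and 9.80 in controls and 9.85 and 9.71 with ASP, a log2 difference of -0.04. In that list 3 of 5 genes were lower, and AIL6, at 6.45 and 6.71 in controls, had a log2 difference of 1.07. In the shoot list the brightest gene was CLV1, with a log2 difference of -0.29, and ANT had 0.16.

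Among differentiated cell types, endodermis markers were lower in 5 of 5, with summed linear signals of 1099 to 1934 in controls and 738 to 847.4 with ASP. The controls were far apart, at 1934 on control array 1 and 1099 on control array 2. CASP5 was called absent on both ASP arrays, and CASP2 and CASP4 were not called present on every array. Root hair markers were higher in 1 of 4, with overlapping sums of 468.8 to 721.7 and 477.6 to 532.8, and RSL4 was absent on 3 arrays. Mesophyll markers were higher in 2 of 2 measured, with sums of 21650 to 24010 against 27180 to 30760. Guard cell and trichome markers were higher in 2 of 5, with sums of 280.6 to 389.1 against 292.2 to 368.7, and GL2 was absent on all 4 arrays. The part of these cell types in the differences of the cell cycle genes was not tested.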

How the data were processed

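The deposited table gives log2 signals of 4 Affymetrix arrays, normalized by the authors; the sources used here do not give the method. The labels' protocols state amplification from the 3′ end and biotin labelling. The authors' deposited table of differing probe sets also holds p-values and fold changes, filtered on both per the file headers, and none is printed here. The normalized table has 4 further per-sample columns that match no sample, 2 of them log2 signal, and they were not used. After 64 Affymetrix control probe sets were set aside, 22746 were fitted with limma 3.58.1 in R 4.3.3 (lmFit, eBayes without trend, Benjamini-Hochberg over all, threshold 0.05); residual degrees of freedom were 2, and prior degrees of freedom 1.34, or 6.06 with the trend. The fit was also run on simulated data with noise set by signal level alone. Measured probe sets differ in noise at the same signal level, so that run does not show how the fit performs on these arrays. Members and lists were chosen with earlier results of these data known.

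S-phase genes are MCM, PCNA and CYCA3; mitotic genes are CYCA1, CYCA2, CYCB, CDKB and aurora. Where a gene had several probe sets the brightest was used. Each member called present on at least 2 arrays is named with all its values, and of the other cell cycle genes up to 4 per role with the smallest p. In both groups the description of replicate 1 carries the letter A and that of replicate 2 the letter C. The correlation of replicate 1 minus replicate 2 between the groups was -0.02384 over 14261 probe sets. This value cannot show whether the samples were paired by design, so the main fit had no pairing. Alternatives were the trend, a robust prior, a plain t-test, a replicate block, filters on dim probe sets, other scaling and leaving out each array. Promoter and protein sequences were not used here.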

Additional observations from a re-analysis of the deposited data

How the results depend on the processing

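No alternative called a member. Over all probe sets, the adjusted threshold was passed by 0 without the trend and by 72 with it, by 18 with the dimmest 30% left out, by 19 when present calls on at least 2 arrays were required and by 193 with that filter and the trend. Leaving out each array in turn gave 0 without the trend, and 9 to 37 when combined with the trend. With the replicate number as a block (replicate block), 0 passed, and 321 passed with the replicate block and the trend. Whether samples of the same replicate number were paired is not known.

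The S-phase median was -0.30 to -0.20 and the mitotic median -0.05 to -0.01 when 1 array was left out. The mitotic minus S-phase difference was 0.18 to 0.29 then, 0.26 after quantile normalization and 0.26 with the 3 shared probe sets.

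The sign held whichever array was left out for 22 of 41 members, among them 8 of 9 S-phase and 8 of 16 mitotic genes. The share over all probe sets was not computed, so these counts have no background beside them. Where the groups do not overlap the sign holds by construction, and 20.9% of all probe sets were lower and 18.5% higher without overlap. For the other 19 the log2 difference spanned 0: CYCA1;1 -0.01 to 0.20, CYCA2;1 -0.59 to 0.09, CYCA2;3 -0.09 to 0.11, CYCA2;4 -0.04 to 0.13, CYCA3;1 -0.28 to 0.22, CYCB2;1 -0.22 to 0.18, CYCB2;2 -0.51 to 0.34, CDKB2;2 -0.19 to 0.05, AUR1 -0.26 to 0.03, KRP1 -0.16 to 0.04, KRP3 -0.81 to 0.12, CYCD1;1 -0.13 to 0.25, CYCD2;1 -0.05 to 0.08, CYCD3;1 -0.11 to 0.07, CYCD3;2 -0.12 to 0.22, CYCD3;3 -0.32 to 0.04, CYCD4;1 -0.22 to 0.37, CYCD5;1 -0.16 to 0.05 and CYCD6;1 -0.51 to 0.89. The cause was not tested.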
